A study of Mus musculus with 28 samples.

Results

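The response of duodenum to a vitamin D receptor that lacks activation function 2 (AF2) was set against the response of kidney cortex to the same receptor. The comparison used 20 of the study's 28 libraries: 4 of Vdr AF2 duodenum, 6 of Vdr+/+ (WT) duodenum, 4 of Vdr AF2 kidney cortex and 6 of Vdr+/+ kidney cortex. The mice were 8-week-old females, and all of them ate the Inotiv TD.96348 diet, which is rich in calcium, phosphate and lactose. The Vdr AF2 mice carry a deletion of AF2 ("delta AF2" in the labels), and which tissues carry it is not stated. The Vdr-/- libraries of the study entered only an alternative fit. The study's design asks how receptor signalling without coactivators affects mineral homeostasis, and the tissue comparison asks whether duodenum and kidney answered alike. The tested value for each gene was the interaction, the log2 fold change of AF2 over WT in duodenum minus the log2 fold change of AF2 over WT in kidney. A positive interaction therefore means a duodenal response above the renal one.

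The vitamin D receptor is a nuclear receptor that binds DNA with a retinoid X receptor partner. Its AF2 helix closes over the bound hormone and recruits coactivators. In the duodenum the hormone is known for driving active calcium absorption through the channel TRPV6, the binding protein calbindin-D9k (S100g) and the calcium pump PMCA1 (Atp2b1). In the kidney the receptor is known for repressing the hormone-making enzyme CYP27B1, inducing the hormone-degrading enzyme CYP24A1 and serving calcium reabsorption.

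Library totals ran between 3837906 and 25181916 deposited counts in duodenum, where WT 2 was the deepest and the next was 6519522, and between 3725648 and 5788528 in kidney. Mitochondrial genes took 8.86% to 13% of duodenal counts and 24.7% to 30.7% of renal counts. The lowest correlation of a library with its own group was 0.972 in duodenum (WT 4) and 0.959 in kidney (AF2 4). The library codes fall into 3 unbroken runs per tissue, and the last run held WT 5, WT 6 and all 4 AF2 libraries. Whether a run was a batch is not given, so fits with the runs as a term were made as well. Nothing in the labels ties tissues to an animal or states that libraries came from separate mice, so p-values measure the spread between these libraries. Genes were tested where they passed an expression filter in a tissue, 12842 in duodenum, 12982 in kidney and 11263 in both.

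Vdr, the altered gene itself, occupies bases 97854425 to 97910630 of chromosome 15, minus strand, in mm10. Its level was 403, 429, 359 and 386 CPM (counts scaled to a fixed library total) in AF2 duodenum, against 264 to 638 CPM with a median of 471 in WT duodenum. It was 81.4, 84.6, 91.2 and 63.1 CPM in AF2 kidney, against 177 to 213 CPM with a median of 200.01 in WT kidney. The groups overlapped in duodenum, and every AF2 kidney lay below every WT kidney. Vdr RNA fell by 1.30 on the log2 scale in kidney (SE 0.12, edgeR adjusted p = 1.83e-07), and its duodenal value was -0.29 (SE 0.20, edgeR adjusted p = 0.613). The interaction was 0.99 (SE 0.24) and missed the threshold with an edgeR adjusted p of 0.0558, which ran between 0.0139 and 0.132 over the alternatives. These 3′ reads measure the amount of Vdr RNA and do not check the deletion.

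The tissues differed in response at 44 genes, which is 0.391% of the 11263 tested (edgeR quasi-likelihood test, adjusted p under 0.05). Of these, 26 (0.231%) had a positive interaction and 18 (0.16%) a negative one, and 1206 genes (10.7%) had an unadjusted p under 0.05. Of the 44, 32 (72.7%) were also called in the kidney fit, beside 1.97% of all genes tested in both tissues, and the duodenum fit called no gene at all. The median size of the effect was 0.38 in duodenum and 0.93 in kidney on the log2 scale. The kidney effect was the larger in 35, and the tissue effects had opposite signs in 33. By unadjusted p within each tissue, 22 genes were led by kidney, 19 had effects of opposite sign, S100g and C3 had unequal effects of the same sign, and the predicted gene Gm42636 was led by duodenum. The AF2 and WT libraries did not overlap at 10 of the 44 in duodenum, where 2.79% of all genes did so, and at 32 in kidney, where 4.88% did. Both tissue effects enter the interaction, so shares above those of all genes follow in part from how the 44 were selected.

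**Figure D1:**
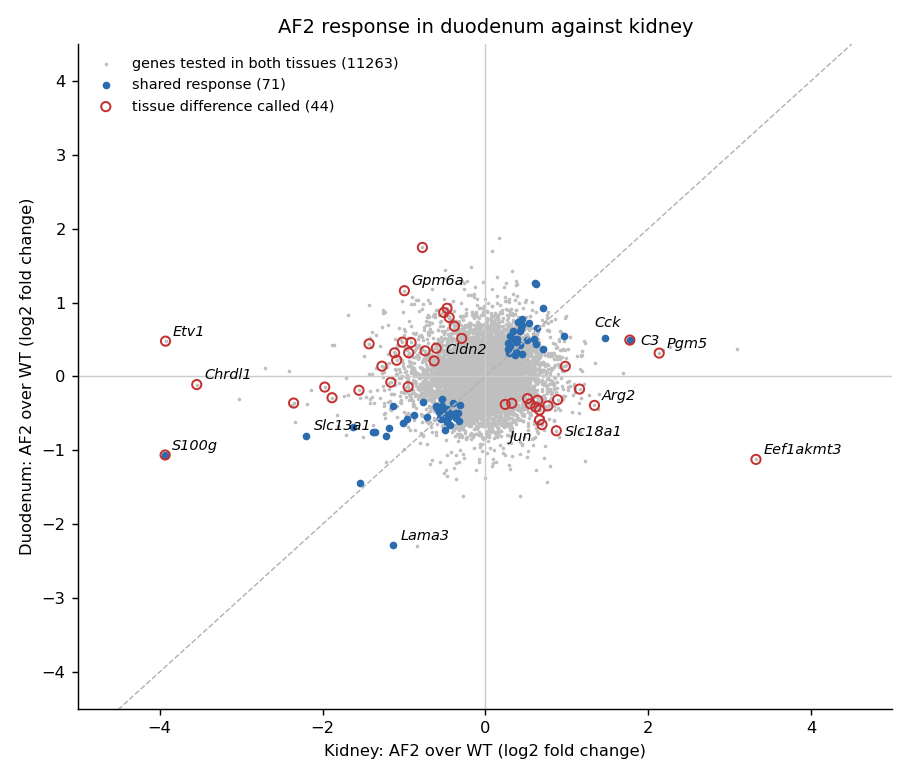
Log2 fold change of AF2 over WT in kidney (horizontal) and duodenum (vertical) for the 11263 genes tested in both tissues, with the 44 called tissue differences ringed, the 71 shared genes filled and the dashed line marking equal effects. S100g lies below 0 on both axes, while Etv1 and Chrdl1 lie far along the kidney axis near 0 in duodenum, and Eef1akmt3 lies at opposite signs.

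The number of called interactions moved by more than 1.5 times with single libraries. It was 134 without duodenum WT 4 and 68 without duodenum AF2 2. It was 19 without duodenum WT 2, 23, 26 and 21 without duodenum AF2 1, AF2 3 and AF2 4, 22 and 25 without kidney WT 2 and WT 3, and 23 and 16 without kidney AF2 1 and AF2 3. All 44 interactions kept their sign in each of the 20 fits with 1 library left out, and 15 kept their call in every one. With the code runs as a term there were 48 calls, of which 20 were among the 44.

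Among the genes of mineral handling the difference was led by S100g, the cytosolic calcium ferry of absorbing cells, on chromosome X at 162961992 to 162964599 on the minus strand. S100g stood at 994, 1186, 433 and 613 CPM in AF2 duodenum, against 898 to 2353 CPM with a median of 1809 in WT duodenum. It stood at 50.2, 56.3, 51.7 and 74.4 CPM in AF2 kidney, against 491 to 1312 CPM with a median of 903 in WT kidney. Every AF2 kidney was far below every WT kidney, while AF2 1 and AF2 2 of duodenum lay within the WT range. S100g had a duodenal value of -1.06 (SE 0.36, edgeR adjusted p = 0.32), which did not pass, and was 15.3-fold lower in AF2 kidney (log2 -3.93, SE 0.34, edgeR adjusted p = 0.000209). Its interaction was 2.85 (SE 0.49, edgeR adjusted p = 0.0135), 3.00 within the code runs, and it lost its call without kidney AF2 3 (adjusted p = 0.0506).

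Cldn2, the claudin that forms cation pores between epithelial cells, was the other mineral gene with a called interaction (chromosome X, 139800828 to 139811386, plus strand). Its level was 134, 171, 168 and 141 CPM in AF2 duodenum, against 92.8 to 164 CPM with a median of 137 in WT duodenum. In kidney it was 205, 212, 184 and 249 CPM in AF2 libraries, against 308 to 357 CPM with a median of 329.8 in WT libraries. The groups overlapped in duodenum and separated in kidney. Cldn2 fell by 0.63 on the log2 scale in AF2 kidney (SE 0.11, edgeR adjusted p = 0.000714), its duodenal value was 0.21 (SE 0.15), and the interaction was 0.82 (SE 0.19, edgeR adjusted p = 0.045). That call is a narrow one, kept without duodenum WT 1, duodenum WT 4, kidney WT 1 or kidney AF2 4 and lost without each of the other 16 libraries (adjusted p 0.0562 to 0.1055).

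The bases upstream of these genes are shown because they are the mineral genes whose tissues differed. Each line gives the 250 bases before the RefSeq start (GRCm38.p6), with capitals marking the receptor half-sites on either strand. The half-sites searched were AGGTCA, its common variant AGTTCA, and the same forms starting with G instead of A, which are GGGTCA for the plain form and GGTTCA for the variant. S100g has 3 such half-sites (chrX:162964600-162964849, minus strand) and Cldn2 has 1 (chrX:139800558-139800807, plus strand).
S100g: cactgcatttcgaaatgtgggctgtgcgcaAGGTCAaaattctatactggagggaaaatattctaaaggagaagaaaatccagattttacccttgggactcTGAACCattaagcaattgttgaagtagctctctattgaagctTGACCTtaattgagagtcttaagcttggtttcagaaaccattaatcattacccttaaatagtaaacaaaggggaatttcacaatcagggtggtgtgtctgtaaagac
Cldn2: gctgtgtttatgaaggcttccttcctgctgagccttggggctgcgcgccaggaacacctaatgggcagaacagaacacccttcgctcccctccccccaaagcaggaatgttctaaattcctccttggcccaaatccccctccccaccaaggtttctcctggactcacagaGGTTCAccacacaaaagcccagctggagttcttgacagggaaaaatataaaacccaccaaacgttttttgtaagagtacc
Of all 32851 promoters listed by RefSeq, 38.6% hold at least 1 half-site, and 43.2% of the 44 promoters matched to 32 of the called genes do. Paired half-sites in tandem with 3 bases between them, the classical response element, are in 0.0396% of all promoters and in 0 of these 44 windows. A match is only a string of letters, and these windows say nothing of distal enhancers.

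Several mineral genes were expressed in only 1 of the tissues and so have no interaction. Trpv6, the apical calcium channel, had 0.489, 1.01, 0 and 0 CPM in AF2 duodenum, against 3.92 to 6.25 CPM with a median of 5.14 in WT duodenum. Every AF2 duodenum was below every WT duodenum, yet the gene missed the threshold (log2 -3.56, SE 0.61, edgeR adjusted p = 0.0647). It passed with the code runs as a term (edgeR adjusted p = 0.019). In kidney it reached at most 0.949 CPM in the 10 libraries.

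Cyp27b1, which makes the active hormone, had 326, 293, 247 and 20.9 CPM in AF2 kidney, against 0.731 to 3.45 CPM with a median of 1.74 in WT kidney. All AF2 kidneys were higher, with AF2 4 standing well below the other AF2 kidneys. The gene rose by 6.87 on the log2 scale (SE 0.81, edgeR adjusted p = 0.00268), and its adjusted p was 0.172 within the code runs and 0.0794 by limma-voom with library weights. Cyp24a1, which degrades the hormone, had 0, 0.465, 0.417 and 0 CPM in AF2 kidney, against 8.40 to 36.2 CPM with a median of 12.9 in WT kidney (edgeR adjusted p = 7.92e-05). In AF2 kidney these values are 2 deposited counts in each of 2 libraries. In the 10 duodenal libraries Cyp24a1 had no counts and Cyp27b1 reached at most 0.521 CPM.

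**Figure D2:**
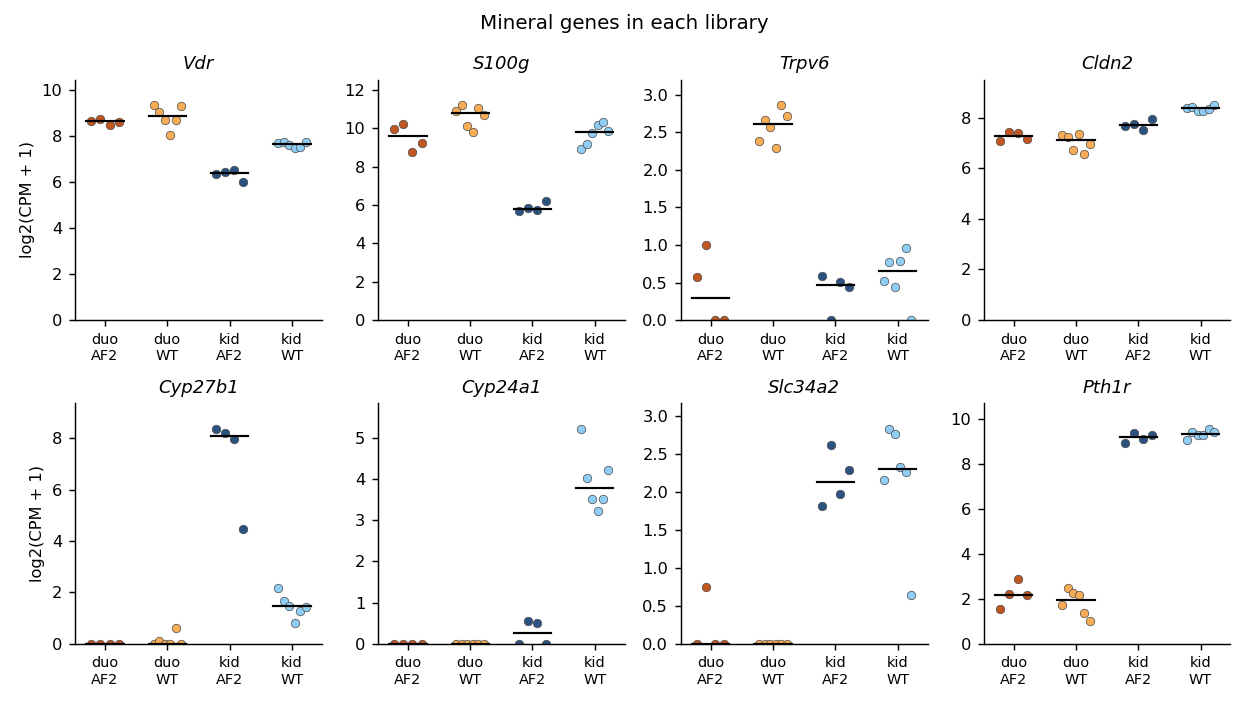
Log2(CPM + 1) of 8 mineral genes in each library (points), with group medians (lines), for AF2 and WT duodenum (duo) and AF2 and WT kidney (kid). S100g, Vdr and Cldn2 separate AF2 from WT in kidney and overlap in duodenum, Trpv6 separates them in duodenum, Cyp27b1 is higher and Cyp24a1 lower in AF2 kidney, and Slc34a2 and Pth1r overlap.

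The rest of the mineral panel showed no call in either tissue or in the interaction. Atp2b1, the basolateral calcium pump, was at 3143, 2775, 2065 and 1977 CPM in AF2 duodenum, against 2378 to 3499 CPM with a median of 2908 in WT duodenum. It was at 144, 137, 146 and 148 CPM in AF2 kidney, against 152 to 197 CPM in WT kidney, where the groups did not overlap. Its interaction was 0.02 (SE 0.18), and those of the exchanger Slc8a1, the claudin Cldn12, the phosphate carriers Slc20a1 and Slc20a2 and the parathyroid hormone receptor Pth1r were 0.56, 0.03, -0.09, 0.14 and 0.50. With the code runs as a term the interaction of Pth1r was 1.95 (SE 0.49, edgeR adjusted p = 0.0743) and that of Slc8a1 was 0.22 (SE 0.40). Kidney values were -0.50 for the channel Trpv5, -0.29 for the calcium binder Calb1, -0.17, -0.15 and 0.18 for the phosphate carriers Slc34a1, Slc34a2 and Slc34a3, -0.43 for the FGF23 co-receptor Kl and -0.05 for the calcium sensor Casr. Duodenal values were -0.12 for the manganese exporter Slc30a10, -0.68 for the sugar phosphate carrier Slc37a2 and -1.12 for the cytochrome P450 Cyp3a11. None of these genes passed edgeR's threshold, with unadjusted p between 0.00781 (Slc37a2) and 0.983 (Slc20a1 in duodenum).

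The strongest positive interaction belonged to Etv1, an ETS transcription factor induced by ERK signalling (chromosome 12, 38779380 to 38870484, plus strand). Its level was 5.38, 8.72, 6.86 and 9.36 CPM in AF2 duodenum, against 3.13 to 8.71 CPM with a median of 5.06 in WT duodenum. In kidney it was 1.51, 2.79, 0.833 and 0.354 CPM in AF2 libraries, against 12.2 to 25.1 CPM with a median of 21.6 in WT libraries. Thus the renal groups were far apart and the duodenal ones overlapped. Etv1 was 15.2-fold lower in AF2 kidney (log2 -3.93, SE 0.37, edgeR adjusted p = 4.01e-07), its duodenal value was 0.48 (SE 0.31), and the interaction was 4.38 (SE 0.50, edgeR adjusted p = 3.86e-06). Some other targets and brakes of the FGF and ERK pathway were called lower in AF2 kidney too. Of the 9 listed genes tested there, Etv1 included, 4 were called lower and none higher, beside 1.58% of all genes called lower. They were Etv1, its relative Etv5 (log2 -2.38, SE 0.42), the ERK inhibitor Spred2 (-1.73, SE 0.41) and the ERK phosphatase Dusp6 (-0.97, SE 0.17). The list's kidney median was -0.69, beside -0.0076 over all genes, and -0.26 without kidney AF2 4, with the same number called. In duodenum Etv5, Spred2 and Dusp6 had values of -0.38 (SE 0.47), -0.26 (SE 0.26) and -0.57 (SE 0.17). The interactions of Etv5 and Spred2 were 1.98 and 1.46 and did not pass (edgeR adjusted p = 0.16 and 0.21), and Dusp6 counted as shared.

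Chrdl1, a secreted BMP antagonist, had 6.84, 8.38, 6.00 and 7.88 CPM in AF2 duodenum, against 6.79 to 9.14 CPM in WT duodenum. It had 1.00, 0, 1.25 and 0.708 CPM in AF2 kidney, against 4.02 to 15.7 CPM with a median of 7.68 in WT kidney. The duodenal groups overlapped and the renal groups were separate, with an interaction of 3.43 (SE 0.57, edgeR adjusted p = 0.00207). Gpm6a, a membrane glycoprotein known from neurons, had effects of opposite sign. It had 3.42, 10.7, 9.004 and 8.37 CPM in AF2 duodenum, against 1.98 to 4.86 CPM in WT duodenum, and 76.4, 89.8, 59.6 and 79.0 CPM in AF2 kidney, against 134 to 171 CPM in WT kidney. AF2 1 of duodenum lay within the WT range, all AF2 kidneys lay below WT, and the interaction was 2.10 (SE 0.29, edgeR adjusted p = 0.000134).

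Ace, the peptidase that forms angiotensin II, counted as shared, with edgeR values of -0.70 in duodenum (SE 0.26, unadjusted p = 0.0194) and -1.19 in kidney (SE 0.17, adjusted p = 0.000118), and its interaction of 0.47 did not pass (edgeR adjusted p = 0.638). Ren1, the renin gene, was tested in kidney only, at log2 2.10 (SE 0.57, edgeR adjusted p = 0.13).

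**Figure D3:**
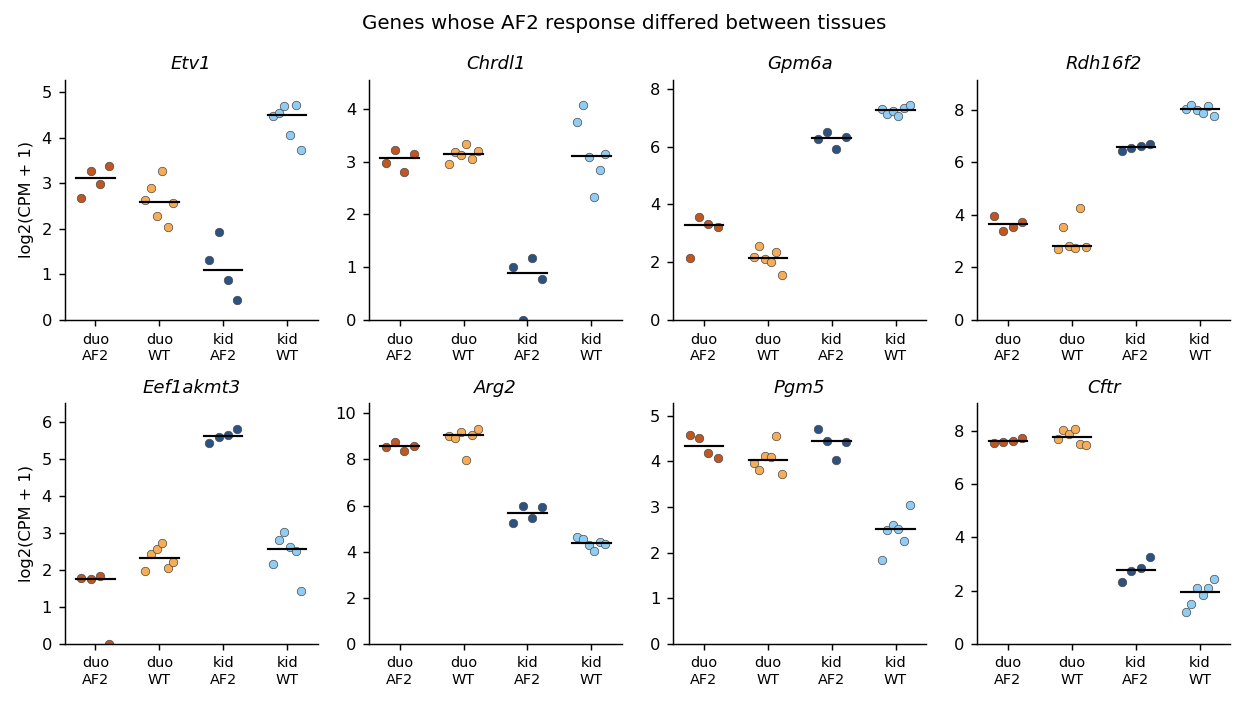
Log2(CPM + 1) of 8 genes in each library (points), with group medians (lines), for AF2 and WT duodenum (duo) and AF2 and WT kidney (kid). Etv1, Chrdl1, Gpm6a and Rdh16f2 are lower in AF2 kidney, while Eef1akmt3, Arg2 and Pgm5 are higher there and the Cftr groups overlap.

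Further genes had a positive interaction with a negative kidney effect, which was called in all but Epsti1 (edgeR adjusted p = 0.0732). They were the retinol dehydrogenase family member Rdh16f2 (interaction 1.84, SE 0.32, adjusted p = 0.00641), the transcription coactivator subunit Ascc1 (1.46, SE 0.27, 0.0069), the secreted chemerin Rarres2 (1.41, SE 0.28, 0.0124), the monocarboxylate carrier family member Slc16a6 (1.81, SE 0.37, 0.0344), the ether lipid cleaving enzyme Agmo (1.98, SE 0.45, 0.0434) and the interferon-induced Epsti1 (1.38, SE 0.31, 0.0351), all by edgeR. Rdh16f2 had 84.4 to 102 CPM in AF2 kidney and 214 to 285 CPM in WT kidney, and 9.39 to 14.7 CPM in AF2 duodenum and 5.50 to 18.2 CPM in WT duodenum. Ascc1 also had an unadjusted p of 0.0433 for a higher level in duodenum, where AF2 3 stood apart at 25.3 CPM. Cdc42ep3, an effector of the small GTPase Cdc42, had a kidney effect that was not called (log2 -0.51, edgeR adjusted p = 0.327) and was the 1 named gene with a positive interaction whose AF2 libraries stood above all WT libraries in duodenum, at 21.0, 13.4, 15.4 and 16.2 CPM, against 8.05 to 9.90 CPM. Its kidney groups overlapped, and the interaction was 1.36 (SE 0.31, edgeR adjusted p = 0.0434).

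The most negative interaction was that of Eef1akmt3, a lysine methyltransferase of a translation elongation factor (chromosome 10, 127031004 to 127041513, minus strand). It had 2.44, 2.35, 2.57 and 0 CPM in AF2 duodenum, against 2.91 to 5.66 CPM in WT duodenum. It had 42.7, 47.4, 49.2 and 55.3 CPM in AF2 kidney, against 1.67 to 7.20 CPM in WT kidney. Neither tissue's groups overlapped, and they lay in opposite orders, but the duodenal gap was narrow. The AF2 duodenum values stand on 10, 14, 12 and 0 deposited counts. The gene rose by 3.32 on the log2 scale in AF2 kidney (SE 0.23, edgeR adjusted p = 3.43e-09). Its duodenal value of -1.12 did not pass (SE 0.52, edgeR adjusted p = 0.418). The interaction was -4.45 (SE 0.49, edgeR adjusted p = 3.86e-06). Cyp27b1 starts nearby on the plus strand, at 127048250, and the gene models do not overlap. Kidney AF2 4 had the lowest Cyp27b1 and the highest Eef1akmt3 of the AF2 kidneys.

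Arg2, the mitochondrial arginase, had 376, 432, 327 and 387 CPM in AF2 duodenum, against 247 to 636 CPM with a median of 526 in WT duodenum. In kidney it had 37.2, 61.4, 42.9 and 60.2 CPM in AF2 libraries, against 15.3 to 24.1 CPM with a median of 19.7 in WT libraries. Duodenal groups overlapped and renal groups did not, and Arg2 rose by 1.34 in AF2 kidney (SE 0.17, edgeR adjusted p = 1.85e-05) with an interaction of -1.75 (SE 0.28, edgeR adjusted p = 0.00207). Pgm5, a phosphoglucomutase relative found at cell adhesions, had 15.8 to 23.0 CPM in AF2 duodenum, against 12.2 to 22.4 CPM in WT duodenum. It had 15.4 to 25.1 CPM in AF2 kidney, against 2.59 to 7.24 CPM in WT kidney, where it rose 4.39-fold (edgeR adjusted p = 6.07e-06). The Pgm5 interaction was -1.84 (SE 0.32, edgeR adjusted p = 0.00373).

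Myo1d, a myosin motor of the brush border, had effects of opposite sign without overlap in either tissue. It had 158, 184, 186 and 162 CPM in AF2 duodenum, against 203 to 315 CPM in WT duodenum, and 68.8, 74.9, 74.995 and 92.5 CPM in AF2 kidney, against 37.5 to 56.2 CPM in WT kidney. The interaction was -1.27 (SE 0.19, edgeR adjusted p = 0.000528). Cftr, the chloride channel, was at 185 to 210.3 CPM in AF2 duodenum and 175 to 266 CPM in WT duodenum. It was at 4.02 to 8.50 CPM in AF2 kidney and 1.29 to 4.45 CPM in WT kidney, with an interaction of -1.38 (SE 0.29, edgeR adjusted p = 0.0303). With the code runs as a term its interaction was -0.56 (SE 0.33, edgeR adjusted p = 0.551).

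The AP-1 members Jun and Fosl2 also had lower duodenal than renal responses. Jun was at 51.3, 72.4, 54.9 and 63.0 CPM in AF2 duodenum, against 48.3 to 144 CPM with a median of 92.7 in WT duodenum. It was at 44.2, 35.8, 43.3 and 26.6 CPM in AF2 kidney, against 18.3 to 31.7 CPM in WT kidney. The groups overlapped in both tissues, and the interaction was -1.37 (SE 0.31, edgeR adjusted p = 0.0434), beside -1.22 (SE 0.27, 0.0351) for Fosl2. Of the 15 immediate early genes tested in both tissues Jun was the 1 with a called interaction, and 11 had a negative value. Their median interaction was -0.49, beside -0.0077 over all 11263 genes. The remaining named negative interactions were those of the vesicular amine transporter Slc18a1 (-1.59, SE 0.34), complement C3 (-1.30, SE 0.29), the palmitoyltransferase Zdhhc2 (-1.19, SE 0.26), the Rab9 effector Rabepk (-1.14, SE 0.25) and the peroxisomal phytanic acid hydroxylase Phyh (-1.05, SE 0.23), each with an edgeR adjusted p of 0.0344.

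Of the 24 named genes with a called interaction, 9 held their call in all 20 fits with 1 library left out: Etv1, Chrdl1, Gpm6a, Rdh16f2, Ascc1, Eef1akmt3, Pgm5, Arg2 and Myo1d. The other 15 lost it without kidney AF2 3, S100g and Rarres2 without that library alone (adjusted p = 0.0506 for each). The calls lost were 15 without kidney AF2 3, 13 without duodenum AF2 1 or duodenum WT 2, 11 without duodenum AF2 4, kidney AF2 1 or kidney WT 2, and 10 without duodenum AF2 3 or kidney WT 3. The highest adjusted p in any of these fits was 0.115 (Agmo, without kidney AF2 4). With the code runs as a term 13 of the 24 passed, and none changed sign. The 11 that did not pass were Rdh16f2, Ascc1 and Pgm5 of the 9 above (edgeR adjusted p = 0.138, 0.0896 and 0.0894), and Agmo, C3, Cdc42ep3, Cftr, Epsti1, Rabepk, Rarres2 and Zdhhc2.

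A shared response was counted where the mean of both tissue effects was called and each tissue had the same sign and an unadjusted p under 0.05. The mean effect was called at 143 genes (1.27% of those tested), 57 higher (0.506%) and 86 lower (0.764%). Of these, 71 were shared (0.63%), 31 higher (0.275%) and 40 lower (0.355%) in AF2 tissue. S100g and C3 were both shared and unequal. The count of shared genes was 152 without duodenum WT 4. It was 26, 30 and 44 without duodenum AF2 3, AF2 4 and AF2 1, 43 and 46 without duodenum WT 1 and WT 6, 43, 42 and 47 without kidney WT 3, WT 5 and WT 6, and 43 without kidney AF2 4. The mean effect was called at 279 genes without duodenum WT 4, at 66, 68 and 85 without duodenum AF2 3, AF2 4 and AF2 1, at 92 without duodenum WT 1 or kidney WT 5, and at 91 without kidney WT 3 or kidney AF2 4.

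Among the shared genes that were lower, Slc13a1, the sulphate transporter of proximal tubule and gut, had 658, 699.96, 429 and 439 CPM in AF2 duodenum, against 552 to 1504 CPM with a median of 901 in WT duodenum. It had 66.8, 72.1, 89.2 and 69.1 CPM in AF2 kidney, against 196 to 394 CPM with a median of 368 in WT kidney. Duodenal groups overlapped and renal ones did not, with effects of -0.81 (SE 0.29) and -2.20 (SE 0.17) and a mean effect of -1.50 (SE 0.19, edgeR adjusted p = 0.00018). The Slc13a1 interaction of 1.38 did not pass (SE 0.35, edgeR adjusted p = 0.0937), and it was 0.88 with the code runs as a term (SE 0.43, edgeR adjusted p = 0.468). Lama3, a laminin chain of epithelial basement membranes on chromosome 18, was the 1 named gene among these whose estimate was larger in duodenum, a difference that did not pass. It had 0.489, 1.68, 0.858 and 0.985 CPM in AF2 duodenum, against 3.59 to 7.69 CPM in WT duodenum, and 6.53, 6.05, 2.92 and 2.13 CPM in AF2 kidney, against 5.57 to 11.3 CPM in WT kidney. Its effects were -2.29 (SE 0.47) in duodenum and -1.13 (SE 0.33) in kidney, with an interaction of -1.15 (SE 0.56, edgeR adjusted p = 0.452). The AF2 duodenum values of Lama3 stand on 2, 10, 4 and 4 deposited counts. Ppp1r16b, a phosphatase regulator, the lysolipid carrier Mfsd2a, the sorting nexin Snx25 and the acetyltransferase family member Nat8f2 had mean effects of -1.15, -1.05, -1.01 and -1.07.

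Among the shared genes that were higher, Ckb, the brain-type creatine kinase, separated the groups in both tissues. It had 763, 669, 821 and 618 CPM in AF2 duodenum, against 451 to 541 CPM in WT duodenum, and 79.4, 89.3, 77.9 and 78.6 CPM in AF2 kidney, against 28.9 to 51.8 CPM in WT kidney. Its mean effect was 0.76 (SE 0.09, edgeR adjusted p = 9.93e-06). C3, the central complement protein, had 47.4, 65.4, 60.5 and 67.0 CPM in AF2 duodenum, against 32.7 to 48.9 CPM in WT duodenum, and 65.8, 53.5, 62.1 and 60.9 CPM in AF2 kidney, against 7.20 to 27.2 CPM in WT kidney. Here only AF2 1 of duodenum fell within the WT range. Acot1, an acyl-CoA thioesterase, and Mdk, the growth factor midkine, also separated the groups in both tissues, but narrowly in duodenum. The lowest AF2 and highest WT duodenum were at 22.46 and 22.39 CPM for Acot1, and at 8.37 and 7.84 CPM for Mdk. Their mean effects were 0.93 (SE 0.17) and 0.81 (SE 0.20). The gut hormone Cck, the protease inhibitor Serpine2, the muscle tropomyosin Tpm2 and the nuclear envelope protein Sun2 had mean effects of 1.02, 0.94, 0.65 and 0.63. The calls of Mdk, Sun2, Mfsd2a and Nat8f2 were lost without 9, 13, 15 and 15 single libraries (highest adjusted p 0.0814, 0.108, 0.1236 and 0.1236). With the code runs as a term the mean effect did not pass for Cck, Sun2, Snx25 and Nat8f2 (edgeR adjusted p = 0.111, 0.235, 0.0501 and 0.158).

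**Figure D4:**
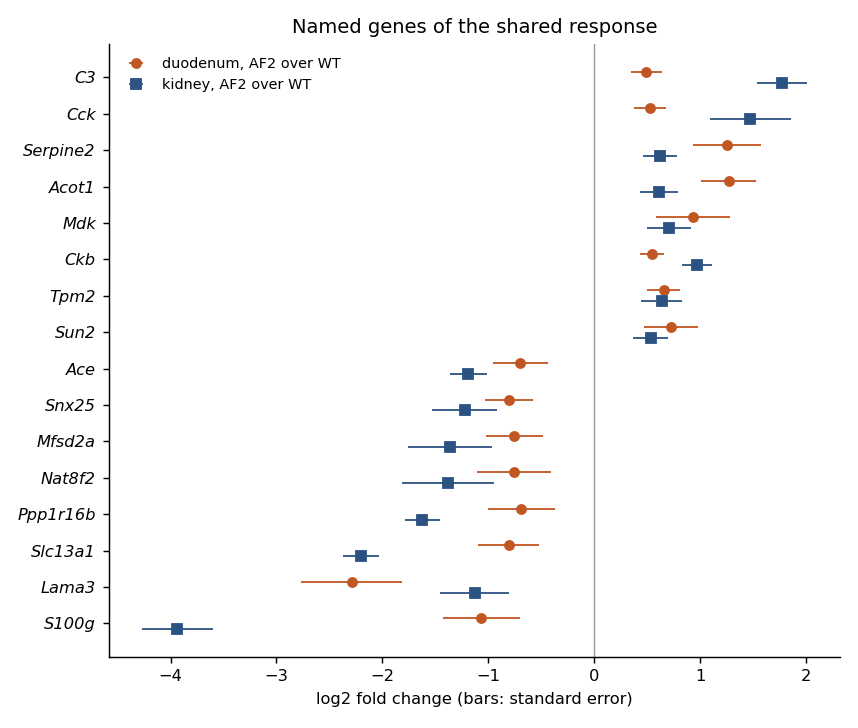
Log2 fold change of AF2 over WT in duodenum (circles) and kidney (squares), with standard errors, for the 16 named shared genes ordered by mean effect. Kidney effects exceed duodenal ones in size for S100g, Slc13a1 and C3, and duodenal effects are the larger for Lama3, Serpine2 and Acot1. Of these, S100g and C3 had a called interaction. Slc13a1, Lama3, Serpine2 and Acot1 did not (edgeR adjusted p = 0.0937, 0.452, 0.501 and 0.568).

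Within each tissue alone, no gene of 12842 was called in duodenum, where 1483 (11.5%) had an unadjusted p under 0.05. DESeq2 called 154 there, limma-voom with library weights 23, and edgeR 241 without duodenum WT 4, 1 without duodenum AF2 2 and 119 with the code runs as a term. In kidney 325 of 12982 genes were called (2.5%), 120 higher and 205 lower, and 119 with the code runs as a term. Of the 222 kidney calls among genes tested in both tissues, 136 (61.3%) had the same direction in duodenum, beside 54.3% of all genes tested in both. Of the 222, 22 (9.91%) had an unadjusted p under 0.05 in the same direction in duodenum, 10 (4.5%) in the opposite one, and 32 (14.4%) had a called interaction. Over all 12842 genes tested in duodenum, 11.5% had an unadjusted p under 0.05 there, in either direction. Among all genes tested in both tissues, 137 (1.22%) had an unadjusted p under 0.05 in each tissue with the same direction and 76 (0.675%) with opposite directions. These last shares also ask for an unadjusted p under 0.05 in kidney, so they are no background for the 9.91% and 4.5%. Over all 11263 genes the tissue effects correlated with a Pearson r of 0.076, and over the 222 kidney calls with 0.18; these are correlations across genes, which are not independent replicates. Among genes tested in kidney only, 103 of 1719 were called (5.99%), beside 1.97% of those tested in both tissues.

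The overlap of the tissues' own calls was also counted without duodenum WT 4, a count chosen after the data were seen. There 214 of the duodenal calls were also tested in kidney and 13 were called there, 6.07% of the duodenal and 5.91% of the renal calls tested in both. Over all genes, the kidney fit called 222 of the 11263 tested in both tissues with every library in place (1.97%). The duodenum fit without WT 4 called 241 of the 12648 genes it tested. Of the 13, 9 moved in the same direction, among them Ace, Ahcyl1, Ckb, Nus1, Sectm1b, Serpine2, Snx25 and Snx7. Arg2, Jun, Myo1d and Sox9, a transcription factor of progenitor cells, moved in opposite directions. Sox9 was at log2 0.60 in duodenum and -1.89 in kidney.

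Gene lists were described by their counts and medians in each tissue, which do not test a tissue difference. Of 23 cholesterol synthesis genes, 14 had an unadjusted p under 0.05 and lower levels in AF2 duodenum, where 6.46% of all genes did so. Their duodenal median was -0.54, beside 0.0042 over all genes, with Mvk at -0.82 (SE 0.24), Hmgcs1 at -0.79 (SE 0.27) and Sqle at -0.66 (SE 0.21). In kidney the median was -0.19, beside -0.0076 over all genes. No interaction of the list was called, and its median was -0.38. Of 14 genes of drug and xenobiotic metabolism tested in both tissues none had a called interaction, with medians of -0.17 in duodenum and -0.60 in kidney over the members tested in each. The P450s Cyp4b1 and Cyp2j5 and the export pump Abcc2 were called lower in kidney (log2 -3.03, -0.69 and -0.60), and Cyp2d9 was called higher (2.26). Cyp4b1 had an interaction of 2.70 (edgeR adjusted p = 0.0654).

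Genes of ammonia and acid handling had a median of -0.34 over the 11 tested in duodenum and 0.16 over the 16 tested in kidney. None of the 11 tested in both tissues had a called interaction, and their median interaction was -0.38. In kidney 5 of 16 were called higher and 1 lower, beside 0.924% and 1.58% of all genes. The called members were the glutamine carrier Slc38a3 (1.00), the ammonia channel Rhcg (0.77), the anion exchanger Slc4a1 (0.79), the proton pump subunit Atp6v0d2 (0.59) and the carbonic anhydrase Car3 (3.09), which rose, and Car4 (-0.62), which fell. The receptor's partners and coregulators, among them Rxra, Ncoa1 and Ncor1, had no call in either tissue or the interaction, with 16 tested and a median interaction of 0.02. All 16 genes of the immunoproteasome and antigen presentation had negative kidney values, with a median of -0.52 and no call. Their summed level was 8707 CPM in kidney WT 1 and 1471 to 1722 CPM in the other WT kidneys, against 1438 to 1581 CPM in AF2 kidneys, and the median was -0.0039 without kidney WT 1.

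**Figure D5:**
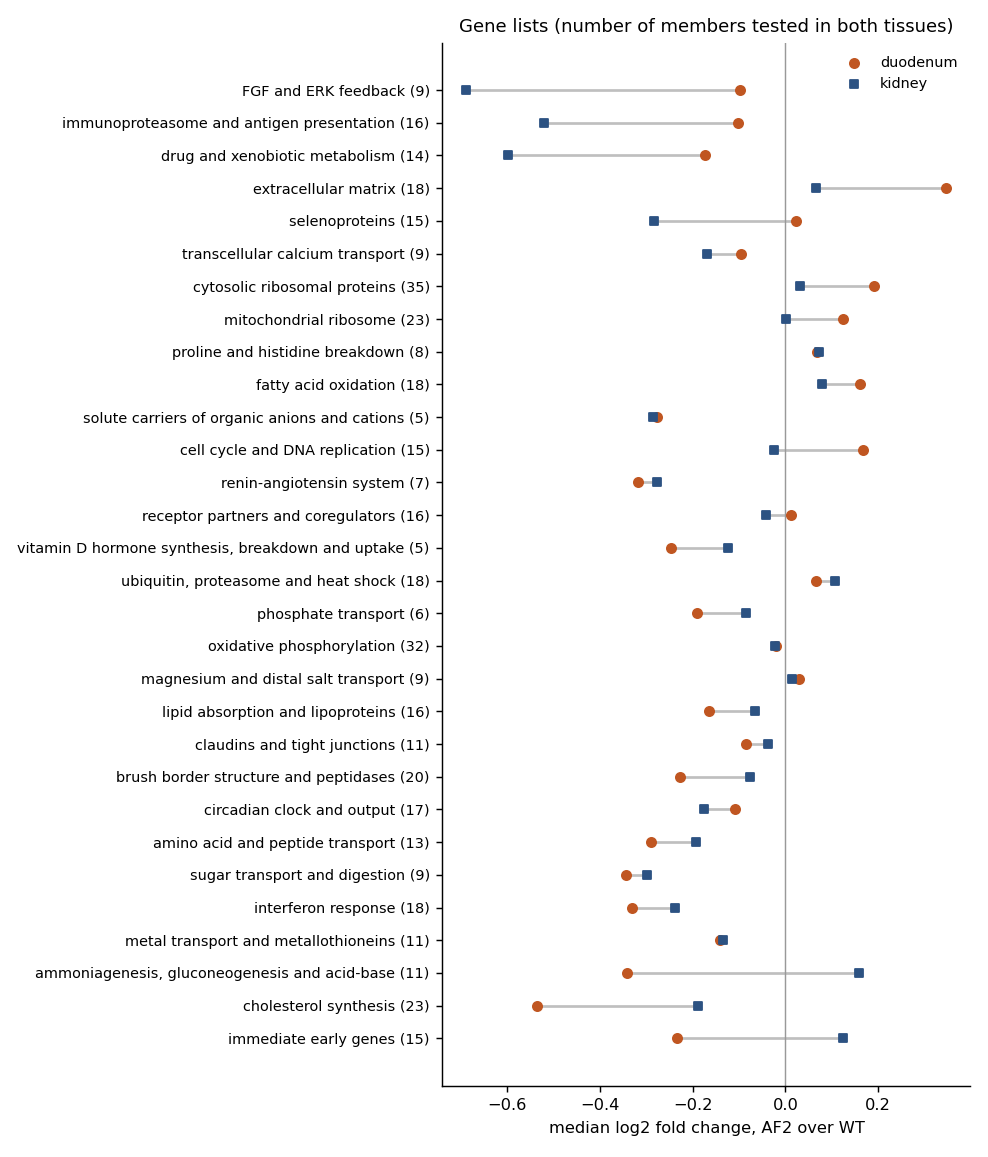
Median log2 fold change of AF2 over WT in duodenum (circles) and kidney (squares) over the members of each gene list tested in that tissue, with the number tested in both tissues in brackets. FGF and ERK feedback is lowest in kidney, cholesterol synthesis is lowest in duodenum, and immediate early genes and the ammonia and acid list lie on opposite sides of 0.

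Markers of other cell types were summed in each library. In bulk tissue, fewer cells of a type and less RNA per cell cannot be told apart. In duodenum 9 of 10 smooth muscle genes had an unadjusted p under 0.05 and higher levels in AF2, where 5.09% of all genes did so, with a summed level of 1492 to 1853 CPM in AF2 and 1086 to 1685 CPM in WT. All 20 extracellular matrix genes had positive values there (median 0.35), and the enteroendocrine list summed to 461 to 509.6 CPM in AF2 and 295 to 436 CPM in WT, without overlap. The enterocyte list summed to 13309 to 19068 CPM in AF2 and 13260 to 27251 CPM in WT duodenum. Of its 13 genes 1 had a positive value there, with a median of -0.35. Lower levels with an unadjusted p under 0.05 by edgeR were found for 5 of them, where 6.46% of all genes did so. In kidney the medulla list summed to 3500 to 4020 CPM in AF2 and 2308 to 3087 CPM in WT, with Umod and Slc12a1 called higher. The podocyte list summed to 405 to 499 CPM in AF2 and 284 to 353 CPM in WT kidney, and the proximal tubule list to 19921 to 24700 CPM in AF2 and 23743 to 27596 CPM in WT kidney. Of 13 proximal tubule genes tested in kidney, 2 were called higher and 0 lower, beside 0.924% and 1.58% of all genes. Positive values were found for 5 of the 13, with a median of -0.23. In kidney no defining enterocyte, goblet or Paneth marker sum exceeded 198.4 CPM, and in duodenum the proximal tubule and medulla sums reached at most 73.4 CPM. The exocrine pancreas list, in contrast, varied widely between duodenal libraries. It summed to 436 to 11265 CPM in AF2 and 46.2 to 21634 CPM in WT duodenum. The part of these markers in the tissue differences was not tested.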

How the data were processed

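QuantSeq libraries, which read the 3′ ends of transcripts, were made from total RNA of duodenum and kidney cortex. The values are gene counts as deposited by the authors, in 1 table per tissue. The submitters' processing notes name mm10 and limma 3.34.9, while no source used here gives the aligner, the counter or the use of strand. All deposited counts are even, so 1 read may stand as 2 counts, and halved counts were an alternative.

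The tables were joined on gene symbol (27271 shared). Genes passed edgeR's filterByExpr at a count minimum of 10 in both tissues. The interaction and the mean effect came from 1 fit of all 20 libraries, and each tissue's own effect from its 10, with TMM scaling and the robust quasi-likelihood test of edgeR 4.0.16 (R 4.3.3) and Benjamini-Hochberg adjustment at 0.05. CPM were computed from scaled library totals, and are not counts over the deposited total alone. In duodenum AF2 1, for example, Vdr had 1650 of 3938176 deposited counts and 403 CPM. Standard errors are the log2 fold change over the root of F. The scripts were tested on simulated data. The alternatives used DESeq2 1.42.0, limma 3.58.1, other filters and scalings, left-out libraries, library code runs and a replicate block.

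Genes named are Vdr and a mineral panel, the 12 highest and 12 lowest called interactions and the 8 highest and 8 lowest shared effects whose average log2 CPM reached 1, leaving out predicted genes, Rik clones and pseudogenes, and up to 4 called members of each list. The members and lists were chosen with earlier results of these data known. Genes outside that rule, such as uncalled list members, were chosen after their values were seen. A few genes that meet the rule are not reported here. Locations are those of GENCODE vM21 genes on mm10, and promoter sequences are from RefSeq on GRCm38.p6.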

Additional observations from a re-analysis of the deposited data

Results flagged for a closer look

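The response to AF2 loss differed between duodenum and kidney, by the edgeR interaction test over all genes, at 24 of the named genes. Their positive differences (duodenum minus kidney, log2) were 4.38 for Etv1, 3.43 for Chrdl1, 2.85 for S100g, 2.10 for Gpm6a, 1.98 for Agmo, 1.84 for Rdh16f2, 1.81 for Slc16a6, 1.46 for Ascc1, 1.41 for Rarres2, 1.38 for Epsti1, 1.36 for Cdc42ep3 and 0.82 for Cldn2. The negative ones were -4.45 for Eef1akmt3, -1.84 for Pgm5, -1.75 for Arg2, -1.59 for Slc18a1, -1.38 for Cftr, -1.37 for Jun, -1.30 for C3, -1.27 for Myo1d, -1.22 for Fosl2, -1.19 for Zdhhc2, -1.14 for Rabepk and -1.05 for Phyh.

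A single library stood far from the others of its group in 8 of 180 groups of values, 4.44%, where chance gives about 5%. In AF2 libraries these were Ascc1 at 25.3 CPM in duodenum AF2 3, Eef1akmt3 at 0 CPM in duodenum AF2 4, Epsti1 at 150.2 CPM in duodenum AF2 2 and Ckb at 89.3 CPM in kidney AF2 2. In WT kidneys they were Agmo at 2.85 CPM in WT 5, Mdk at 11.7 CPM and Slc13a1 at 196 CPM in WT 6, and Slc20a2 at 18.3 CPM in WT 4.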

How the results depend on the processing

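The count of called interactions, 44, was 140 by DESeq2, 99 by limma-voom with library weights, 81 with the Vdr-/- libraries in the fit, 139 without duodenum WT 4 and kidney AF2 4 together (chosen after the data were seen) and 16 to 134 with 1 library left out. Duodenal calls, 0, were 239 without the filter on low counts, 154 by DESeq2, 23 by limma-voom, 9 with Vdr-/- libraries, 2 with halved counts, 119 with the code runs as a term, 241 without both libraries and 0 to 241 with 1 left out. Kidney calls, 325, were 551 without the filter, 119 with the code runs and 237 to 348 with 1 library left out. Mean effect calls, 143, were 286 by DESeq2 and 66 to 279 with 1 library left out. Shared genes, 71, were 125 by DESeq2, 118 without both libraries and 26 to 152 with 1 left out. Whether replicate numbers pair libraries was not settled. Correlations of same-numbered deviations across tissues ran from -0.099 to 0.12, over 0.1 in 2 of 10. In WT they were 0.075, 0.12, 0.028, 0.104, -0.0076 and 0.066 for numbers 1 to 6, where unlike-numbered values reached 0.0472. In AF2 they were 0.00053, 0.011, -0.059 and -0.099 for numbers 1 to 4, where unlike-numbered values reached 0.094. The replicate block gave 33 interaction, 0 duodenal and 305 kidney calls. As a random effect the block gave 37 interaction and 94 mean effect calls, and under the fixed block S100g had an edgeR adjusted p of 0.101. Of 2491 tests of named genes under alternatives 39 changed sign, none in a called interaction. By limma-voom the interaction was -0.00861 for Cldn12, -0.13 for Slc20a2 and -0.049 for Tpm2. With the code runs it was -0.19 for Cldn12, -0.27 for Snx25 and -0.098 for Ace, and Trpv5 in kidney was 0.037. Without both libraries it was -0.0047 for Atp2b1, -0.032 for Cldn12, 0.0076 for Slc20a1 and -0.20 for Slc20a2. For Tpm2 it was -0.010 without the filter and -0.012 with genes passing in either tissue. With 1 library left out the interaction ran between -0.11 and 0.12 for Atp2b1, -0.044 and 0.17 for Cldn12, -0.26 and 0.014 for Slc20a1, -0.21 and 0.38 for Slc20a2, and -0.082 and 0.12 for Tpm2. The causes of these shifts were not tested. Depth limits genes of a few CPM, such as Trpv6, Chrdl1 and, in duodenum, Eef1akmt3 and Lama3.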

Other observations

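Of 36 cytosolic ribosomal protein genes tested in duodenum 31 had a positive AF2 over WT value, with a median of 0.19, and the kidney median was 0.03 over 35 genes. All 8 Paneth cell genes tested in duodenum had positive values, with a median of 0.58 and a summed level of 2554 to 7108 CPM in AF2 and 2251 to 4155 CPM in WT duodenum. Of 15 selenoprotein genes tested in kidney 2 had a positive value, with a median of -0.28, beside 0.02 in duodenum. By edgeR no interaction was called among the 35 ribosomal protein and 15 selenoprotein genes tested. Of these, 6 and 5 had an unadjusted p under 0.05, beside 10.7% of all genes. No Paneth cell gene was tested in kidney, so that list has no interaction.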
